A study of Rattus norvegicus with 48 samples.

Results

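Scd and Scd2, which encode stearoyl-CoA desaturases, and Insig1 and Hsd17b7, which belong to sterol control and sterol synthesis, were described in rat kidney over all strains and days of the series. They were found as the probe sets whose only gene symbol in the array annotation is one of these names, which gave 4 of 8797 probe sets, 1 per gene. The genes were chosen by earlier results of these data, the differences in signal between days and between strains. Their differences between days are therefore given without a test, as is the F against L difference of Insig1 and Hsd17b7 in untreated kidneys. Male rats of 4 strains, named F, L, FL and LF with no meaning given for the letters, were gavaged for 7 or 10 days with indole-3-carbinol, or with its vegetable oil carrier only. This compound of cabbage plants forms acid products that activate the aryl hydrocarbon receptor, and the dose was 100 mg per kg body weight per day. Kidneys given oil only carry the label day 0 and share the gavage and the chow with the treated rats. The age was 12 weeks in the sample labels and 12 to 14 weeks in the treatment protocol. Each of the 12 groups had 8 rats in that protocol and 4 arrays, described as biological replicates, and pooling of rats on an array is neither stated nor denied in the labels. Levels are log2 array signals, on which a difference of 1 is a factor of 2, and a level of one probe set cannot be set against that of another.

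Stearoyl-CoA desaturases place the first double bond into saturated fatty acids, which supplies oleate and palmitoleate for triglycerides, phospholipids and cholesterol esters. The Scd gene is best known from liver and fat, where insulin and the factors SREBP-1c and LXR drive it, and Scd2 is the form common in brain and many other tissues. Insig1 sits in the endoplasmic reticulum, where it holds the SCAP and SREBP complex back when sterols are plentiful. Hsd17b7 carries out the 3-ketosteroid reductase step of cholesterol synthesis and can also convert estrone to estradiol. Insig1 and genes of cholesterol synthesis are known targets of SREBP-2.

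All 4 genes matched an entry of the RefSeq promoter table for build GRCr8. Scd2 and Scd lie on chromosome 1, at 253118377 to 253131436 on the plus strand and 253218968 to 253232101 on the minus strand, 87.5 kb apart with the desaturase gene Scd4 between them. Insig1 lies on chromosome 4 at 8049339 to 8057812 and Hsd17b7 on chromosome 13 at 84702875 to 84722810, both on the minus strand. The stretch before the start of Scd2, Insig1 and Hsd17b7 is shown because the signals of Scd2 deviated together with those of the other 2 genes across arrays, as given further on. It covers 250 bases for Scd2 (chr1:253118127-253118376), 207 for Insig1 (chr4:8057813-8058019) and 194 for Hsd17b7 (chr13:84722811-84723004), 5′ to 3′ along the gene, without bases that fall inside the gene model. Capitals mark matches to CCAAT, to CACGTG (an E-box) or to GGGCGG (a GC box), each searched on both strands, so that ATTGG and CCGCCC are the reverse forms.
Scd2: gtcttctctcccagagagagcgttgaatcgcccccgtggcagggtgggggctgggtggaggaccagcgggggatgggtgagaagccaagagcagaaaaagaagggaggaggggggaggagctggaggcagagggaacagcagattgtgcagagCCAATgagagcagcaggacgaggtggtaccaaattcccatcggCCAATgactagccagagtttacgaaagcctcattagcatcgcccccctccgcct
Insig1: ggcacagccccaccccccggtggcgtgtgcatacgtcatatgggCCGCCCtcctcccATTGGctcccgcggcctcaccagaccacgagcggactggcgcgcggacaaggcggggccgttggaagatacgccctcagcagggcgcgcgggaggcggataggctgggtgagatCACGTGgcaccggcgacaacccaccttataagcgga
Hsd17b7: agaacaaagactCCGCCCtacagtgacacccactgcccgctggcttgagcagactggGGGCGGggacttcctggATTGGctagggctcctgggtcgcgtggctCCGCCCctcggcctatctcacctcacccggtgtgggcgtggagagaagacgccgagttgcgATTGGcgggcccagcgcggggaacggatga
The full 250 bases before the start held 2 matches to CCAAT in Scd2, 1 in Insig1 and 3 in Hsd17b7, and this motif occurs in 34.0% of the 33469 RefSeq promoters. GC boxes numbered 1 in Insig1 and 3 in Hsd17b7, against 30.5% of all promoters with at least 1, and the 1 E-box of Insig1 is of a kind found in 5.59%. The letters TCACNCCAC, the core of a sterol response element, matched 0 times in the 4 windows and occur in 0.974% of promoters. The window of Scd lies inside its own gene model and held none of these letters; it is not printed. A match is a run of letters and not a measured binding site.

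Across the whole table, 435 probe sets (4.94%) passed an adjusted p of 0.05 in the strain mean at day 7 and 212 (2.41%) at day 10, by limma with Benjamini-Hochberg adjustment over all 8797. Array medians lay between 5.66 and 6.06. The replicate number in the labels coincides with 1 of 4 sets of 12 consecutively numbered arrays, called runs here, each with 1 array of every group. Of the kidney tubule markers, 11 of 12 were measured, with list means of 10.3 to 10.6 at day 0, and adrenal markers had list means of 3.75 to 4.02. In whole kidney, fewer cells of a type and less RNA per cell cannot be told apart.

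The mean Scd signal was lower in treated than in oil kidneys of every strain, and the differences were largest in F and LF, although the place of LF at day 7 rests on 1 oil array. In F kidneys it was 6.02, 6.73, 5.10 and 5.0 at day 0 in replicates 1 to 4, 3.75, 4.75, 4.67 and 4.39 at day 7, and 4.33, 3.42, 4.53 and 4.62 at day 10. In LF kidneys it was 4.77, 7.84, 4.41 and 5.59 at day 0, 4.40, 5.25, 4.67 and 4.40 at day 7, and 4.34, 3.80, 4.04 and 4.09 at day 10. All treated F arrays thus lay below all F oil arrays, and so did the LF arrays of day 10, while LF at day 7 overlapped with an oil group that held the highest Scd signal of the series. In L kidneys the signals were 5.37, 6.66, 5.50 and 4.24 at day 0, 4.21, 4.06, 5.54 and 6.12 at day 7, and 4.27, 4.98, 4.43 and 6.46 at day 10. In FL kidneys they were 5.63, 4.53, 5.15 and 6.15 at day 0, 4.46, 4.62, 5.03 and 4.64 at day 7, and 4.36, 5.41, 4.28 and 4.74 at day 10. Treated and oil arrays overlapped in both of these strains, and 2 L arrays of day 7 and 1 of day 10 lay above all but the highest L oil array.

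**Figure D1:**
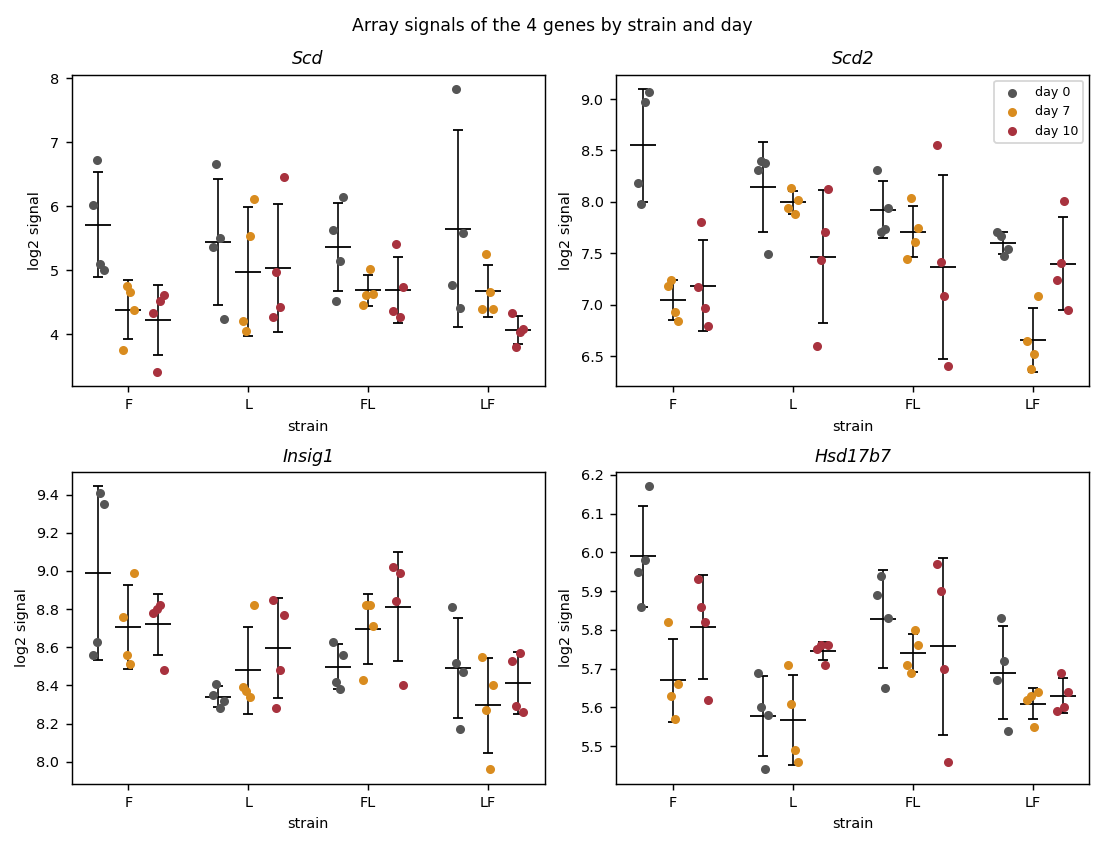
Log2 signals (y axis) of Scd, Scd2, Insig1 and Hsd17b7 by strain (x axis) and day (colour), with 1 point per array and the mean ± SD of 4 arrays in black. The highest group mean of each gene is that of F kidneys at day 0, and single Scd arrays reach 7.84 in LF at day 0.

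In the order of the 12 group means of Scd, the 4 oil groups stood first, from F with 5.71 ± 0.82 (SD, n = 4) to FL with 5.37 ± 0.69, and LF at day 10 stood last with 4.07 ± 0.22. None of the 11 steps between neighbours in this order was larger than the larger of the SDs beside it, and all neighbouring ranges overlapped. Scd is a dim probe set, and its mean over all arrays, 4.91, was above that of 38.3% of probe sets. The spread of Scd within groups, 0.79 as a pooled SD, was exceeded by 35 probe sets, 0.398% of the table. Against day 0, Scd differed by -1.32 in F, -0.46 in L, -0.68 in FL and -0.97 in LF at day 7, each with a standard error of 0.54. At day 10 the differences were -1.49 in F, -0.41 in L, -0.67 in FL and -1.58 in LF. The mean of the strains was -0.86 ± 0.27 (SE) at day 7, a signal 1.81 times lower, and -1.04 ± 0.27 at day 10, 2.05 times lower, which was the lowest difference of the 7603 probe sets with 1 symbol at that day. A gene lies below day 0 in all 4 strain means at day 10 in 8.14% of the table and at day 7 in 20.5%. Groups with all 4 treated arrays below all 4 oil arrays made up 2.76% of probe sets in F at day 7, 3.19% in F at day 10 and 2.5% in LF at day 10. Scd was 1 of these in each, and since these differences were in view when it was chosen, nothing further is read from the shares or from its rank.

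The size of the Scd differences moved when single arrays or runs were left out. Without the LF day 0 array of replicate 2, the signal of 7.84, the LF difference was -0.86 in place of -1.58 at day 10 and -0.24 in place of -0.97 at day 7, then the smallest of the 4 strains, and the mean of the strains was -0.85 at day 10. With array weights LF at day 7 was also the smallest, -0.65 beside -0.67 in FL and -0.82 in L. The L differences ran from -0.86 to -0.05 at day 7 and from -0.88 to -0.002 at day 10 on leaving out 1 L array, with the values nearest 0 without the day 0 array of replicate 2. Within runs, the mean of the 4 strain differences at day 7 was -1.24 in run 1, -1.77 in run 2, -0.06 in run 3 and -0.36 in run 4. At day 10 the runs gave -1.12, -2.04, -0.72 and -0.27. All 8 values were below 0, with the largest in run 2, which holds that LF array. Without run 2 the mean of the strains was -0.55 at day 7 and -0.70 at day 10, and without run 4 the L difference at day 10 was -1.28 in place of -0.41.

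Scd2 was likewise lower in treated kidneys of each strain, with the largest differences in F at both days and in LF at day 7. In F kidneys its signals were 8.18, 7.98, 8.97 and 9.07 at day 0, 7.18, 7.24, 6.93 and 6.84 at day 7, and 7.17, 7.81, 6.97 and 6.80 at day 10. In LF kidneys they were 7.71, 7.67, 7.48 and 7.54 at day 0, 6.65, 6.38, 6.52 and 7.09 at day 7, and 7.24, 7.41, 8.01 and 6.95 at day 10. Every treated F array lay below every F oil array, whereas in LF this held at day 7 and not at day 10, when replicate 3 was above all oil arrays. In L kidneys the signals were 8.31, 8.40, 8.38 and 7.49 at day 0, 7.94, 8.14, 7.88 and 8.02 at day 7, and 6.60, 7.44, 7.71 and 8.13 at day 10. In FL kidneys they were 8.31, 7.71, 7.74 and 7.94 at day 0, 7.45, 8.04, 7.61 and 7.75 at day 7, and 8.55, 7.42, 7.09 and 6.41 at day 10. The groups of these strains overlapped, and the FL arrays of day 10 held both the highest and the lowest Scd2 signals of that strain.

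Group means of Scd2 were highest in F at day 0, 8.55 ± 0.55 (SD, n = 4), and lowest in LF at day 7, 6.66 ± 0.31. The step from F at day 7, 7.05 ± 0.19, to LF at day 7 was 0.39 and the only 1 of 11 steps larger than the SDs beside it, and the ranges still overlapped. The pooled SD within groups was 0.45. Differences from day 0 were -1.50 in F, -0.15 in L, -0.21 in FL and -0.94 in LF at day 7, and -1.36, -0.68, -0.56 and -0.20 in the same order at day 10, each with a standard error of 0.30. The F difference at day 7 was the lowest of all probe sets with 1 symbol in that contrast. Such differences were in view when Scd2 was chosen, so nothing further is read from this rank. The mean of the strains was -0.70 ± 0.15 (SE) at both days, a signal 1.63 times lower at day 7 and 1.62 times lower at day 10. Single arrays moved some strain values by over 1.5 times. Without FL at day 10 replicate 4 the FL difference at day 10 was -0.24, and without replicate 1 of that group it was -0.95. The L difference was -0.39 at day 10 without L at day 10 replicate 1 and -0.37 at day 7 without L at day 0 replicate 4, and the LF difference at day 10 was -0.40 without LF at day 10 replicate 3 and -0.05 without replicate 4. At day 7 the FL difference ran from -0.32 to -0.08. Within runs the mean of the strains lay between -0.91 and -0.49 at day 7 and between -0.94 and -0.42 at day 10, below 0 in every run. Probe sets with all treated arrays below the oil arrays made up 2.76% in F at day 7, 3.19% in F at day 10 and 6.51% in LF at day 7. Scd2 was among them in each. Between days 7 and 10, Scd2 differed by 0.74 ± 0.30 in LF and by -0.53 ± 0.30 in L.

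**Figure D2:**
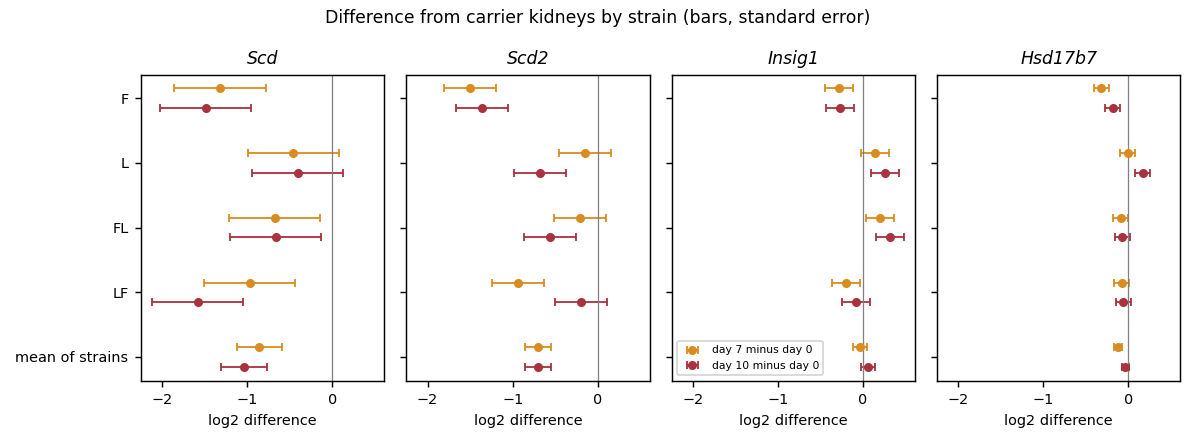
Difference of the log2 signal from day 0 (x axis) for each gene by strain and for the mean of the 4 strains (y axis), at day 7 and day 10 (colour), with bars for the standard error. Scd and Scd2 lie below 0 in every strain at both days, and Insig1 lies on both sides of 0.

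Insig1 showed no common direction across strains. In F kidneys its signals were 8.56, 8.63, 9.41 and 9.35 at day 0, 8.76, 8.56, 8.51 and 8.99 at day 7, and 8.78, 8.80, 8.82 and 8.48 at day 10. In L kidneys they were 8.35, 8.41, 8.28 and 8.32 at day 0, 8.39, 8.37, 8.34 and 8.82 at day 7, and 8.85, 8.28, 8.48 and 8.77 at day 10. The F oil group split into 2 arrays near 8.6 and 2 near 9.4, and all treated F arrays lay below the upper pair, while the L oil arrays were the tightest of the 12 groups. In FL kidneys the signals were 8.63, 8.42, 8.38 and 8.56 at day 0, 8.43, 8.82, 8.82 and 8.71 at day 7, and 9.02, 8.84, 8.99 and 8.40 at day 10. In LF kidneys they were 8.81, 8.52, 8.17 and 8.47 at day 0, 8.55, 8.27, 7.96 and 8.40 at day 7, and 8.53, 8.29, 8.57 and 8.26 at day 10. Treated and oil arrays overlapped in all 4 strains at both days.

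The Insig1 group means were highest in F at day 0, 8.99 ± 0.45 (SD, n = 4), and lowest in LF at day 7, 8.30 ± 0.25, with 0 of 11 steps larger than the SDs beside it. Differences from day 0 were -0.28 in F and -0.20 in LF at day 7 against 0.14 in L and 0.20 in FL, each with a standard error of 0.17. At day 10 they were -0.27 in F, -0.08 in LF, 0.26 in L and 0.32 in FL. Single arrays moved some of these values. At day 7 the F difference ran from -0.425 to -0.14 on leaving out 1 F array. The L difference at day 7 was 0.03 without L at day 7 replicate 4. In LF at day 10 the difference was 0.03 without LF at day 0 replicate 1, a change of sign, and -0.19 without LF at day 0 replicate 3. The mean of the strains was -0.04 ± 0.08 (SE) at day 7 and 0.06 ± 0.08 at day 10, and the day 7 value was 0.02 once array medians were subtracted.

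Hsd17b7 had the narrowest range of the 4 genes, with a pooled SD within groups of 0.12. In F kidneys its signals were 5.95, 5.86, 5.98 and 6.17 at day 0, 5.82, 5.63, 5.57 and 5.66 at day 7, and 5.93, 5.86, 5.82 and 5.62 at day 10. In L kidneys they were 5.69, 5.60, 5.44 and 5.58 at day 0, 5.71, 5.61, 5.49 and 5.46 at day 7, and 5.75, 5.76, 5.71 and 5.76 at day 10. The F arrays of day 7 all lay below the F oil arrays, and the L arrays of day 10 all lay above the L oil arrays. In FL kidneys the signals were 5.89, 5.94, 5.65 and 5.83 at day 0, 5.71, 5.69, 5.80 and 5.76 at day 7, and 5.97, 5.90, 5.70 and 5.46 at day 10. In LF kidneys they were 5.67, 5.83, 5.72 and 5.54 at day 0, 5.62, 5.63, 5.55 and 5.64 at day 7, and 5.59, 5.69, 5.60 and 5.64 at day 10. Treated and oil arrays overlapped in both.

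Hsd17b7 group means ran from 5.99 ± 0.13 (SD, n = 4) in F at day 0 to 5.57 ± 0.12 in L at day 7. The step from F to FL at day 0, 0.16, was the only 1 of 11 larger than the SDs beside it. Differences from day 0 were -0.32 in F, -0.01 in L, -0.09 in FL and -0.08 in LF at day 7, each with a standard error of 0.09, and at day 10 -0.18, 0.17, -0.07 and -0.06. The share of probe sets with all treated arrays below the oil arrays in F at day 7 was 2.76%, and with all above them in L at day 10 it was 1.43%. The mean of the strains was -0.12 ± 0.04 (SE) at day 7, or -0.07 once array medians were subtracted, and -0.04 ± 0.04 at day 10. Without replicate 4 the F difference at day 10 was -0.06.

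Among oil kidneys, the strains were compared in 6 pairs for each gene, 24 comparisons in all. Insig1 and Hsd17b7 were higher in F than in L, by 0.65 ± 0.17 (SE) and 0.41 ± 0.09, with each F array above each L array for both genes, as in 2.49% of probe sets. Both are given as a description with no test, since this contrast is likely to have led to the choice of the genes. Of the other 22 comparisons 0 passed an adjusted p of 0.05 by limma, against 1.43% over all probe sets and pairs, and 6 had an unadjusted p under 0.05. Scd2 was 0.95 ± 0.30 higher in F than in LF with all arrays apart, as in 3.08% of probe sets (adjusted p = 0.104), and Hsd17b7 0.30 ± 0.09 higher in F than in LF, also with all arrays apart (adjusted p = 0.0606). Insig1 in F against LF gave 0.50 ± 0.17 (adjusted p = 0.135). The call of Hsd17b7 in this pair turned with the settings: it passed with the run as a block (adjusted p = 0.0271) and in each of the 6 other alternatives that left out no single array or replicate (0.00236 to 0.0490), and in 4 of 52 fits that left out an array or a replicate. Scd2 passed in 4 and Insig1 in 3 of those 7 alternatives, neither with the block (adjusted p = 0.0979 and 0.113). These F against LF comparisons use the same F oil arrays as the F against L contrast and the day differences in F. They are therefore not independent of the choice of the genes. For Scd, the 6 differences lay between -0.29 and 0.35 with standard errors of 0.54, so that differences of 1 log2 unit lie within some of their intervals.

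Strain differences were also compared within the treated arrays, which the day 0 contrast did not use. These arrays entered the day differences in view when the genes were chosen, so the comparisons are not independent of that choice. By limma 0 of 48 comparisons within days 7 and 10 passed the adjusted p, 8 had an unadjusted p under 0.05, and 1.83% of all such comparisons passed in the table. F minus L of Insig1 was 0.23 ± 0.17 (SE, 95% interval -0.11 to 0.56, adjusted p = 0.857) at day 7 and 0.13 ± 0.17 (adjusted p = 0.692) at day 10, by the same fit. For Hsd17b7 it was 0.10 ± 0.09 (95% interval -0.07 to 0.28, adjusted p = 0.913) and 0.06 ± 0.09 (adjusted p = 0.708). At day 7, Scd2 was 1.34 ± 0.30 higher in L than in LF (adjusted p = 0.0548) and 1.05 ± 0.30 higher in FL than in LF (adjusted p = 0.0522), and 0.95 ± 0.30 lower in F than in L (adjusted p = 0.112). All arrays were apart in these 3 comparisons, as in 2.06%, 2.58% and 2.81% of probe sets in the order given, and the comparisons use the same LF and F arrays of day 7 as the day differences. At day 10 the 6 strain differences of Scd2 lay between -0.28 and 0.10.

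Whether the day differences varied between strains was tested with a moderated F test over 6 degrees of freedom. The test rests on day differences that were in view when the genes were chosen. Its p-values, and those of the strain differences in a response, are therefore not independent of that choice. Of the 4 genes, 0 passed an adjusted p of 0.05 by limma, against 0.193% of the table (17 probe sets), and Scd2 alone had an unadjusted p under 0.05 (0.00700, adjusted p = 0.469). The adjusted p was 0.965 for Scd, 0.938 for Insig1 and 0.869 for Hsd17b7. The day 7 response of Scd2 differed by -1.35 ± 0.43 (SE) between F and L (adjusted p = 0.815) and by -1.29 ± 0.43 between F and FL (adjusted p = 0.636). For Insig1, F and FL differed by -0.58 ± 0.24 in the day 10 response (adjusted p = 0.957). Of the 48 differences between strains in a response, 0 passed and 8 had an unadjusted p under 0.05, with 0.0284% past the threshold in the table. The day differences of these genes are therefore not shown to differ between strains.

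Other genes of the same pathways were read from 5 lists of 103 genes, 57 of them measured as a single named probe set. At day 7, averaged over strains, 3 of 57 rose (against 1.19% of all probe sets) and 3 fell (against 3.75%), and at day 10 2 rose (1.26%) and 0 fell (1.15%). The median difference was -0.09 at day 7 against -0.03 over the table, with 42 of 57 below 0, and -0.01 at day 10. The whole table thus also leaned below 0 at day 7, and its share of probe sets below 0 was not counted. With the array spread as covariate, 7 pathway genes rose and 1 fell at day 7. In the 16 measured genes of cholesterol synthesis, the pathway of Hsd17b7, the median was -0.12 at day 7 with 14 below 0, and 2 fell. These were Idi1, the isopentenyl diphosphate isomerase, with a difference of -0.33 ± 0.10 (SE, adjusted p = 0.0493, lost in 34 of 48 omissions of 1 array and at -0.17 with an adjusted p of 0.105 with the array spread as covariate), and Msmo1, the sterol C4-methyl oxidase that acts just ahead of the Nsdhl and Hsd17b7 steps, with -0.29 ± 0.08 (adjusted p = 0.0283). Cyp51, the lanosterol demethylase, had -0.28 ± 0.11 (adjusted p = 0.161). At day 10, 0 of the 16 passed by limma (0 also at an unadjusted p under 0.05), and Idi1 had -0.13 and Msmo1 -0.06. Beside Insig1, 4 of 13 sterol sensing genes were measured and 0 passed at either day by limma (1 and 0 at an unadjusted p under 0.05). Insig2, its paralogue, had -0.11 ± 0.07 (adjusted p = 0.394) at day 7.

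Beside the desaturases, 16 of 29 listed genes of fatty acid synthesis were measured, with a median of -0.12 at day 7, against -0.03 over the table, and 14 below 0. Of these 1 rose, Cyb5a, the cytochrome b5 that passes electrons to desaturases, by 0.28 ± 0.07 (SE, adjusted p = 0.0205) at day 7 and 0.31 ± 0.07 (adjusted p = 0.0114) at day 10. Fads1, the delta-5 desaturase, had -0.31 ± 0.10 (adjusted p = 0.0504), Thrsp, the Spot 14 protein of lipogenic tissues, -0.40 ± 0.15 (adjusted p = 0.121), and Acaca, acetyl-CoA carboxylase, -0.24 ± 0.08 (adjusted p = 0.0894) at day 7, and none of these passed. Among 8 measured genes of triglyceride synthesis and storage, Plin2, the lipid droplet coat protein, rose by 0.30 ± 0.09 (adjusted p = 0.0436) and 0.37 ± 0.09 (adjusted p = 0.0130), and Mgll, monoacylglycerol lipase, by 0.18 ± 0.05 (adjusted p = 0.0295) at day 7. In cholesterol transport 1 of 13 fell at day 7, the lipoprotein receptor Vldlr, with -0.29 ± 0.09 (adjusted p = 0.0489), and 0 passed at day 10 by limma, 3 with an unadjusted p under 0.05. Abcg1 had -0.30 ± 0.10 (adjusted p = 0.0607) and Soat1 -0.20 ± 0.07 (adjusted p = 0.0754) at day 7. At day 10 Elovl6, a fatty acid elongase, had 0.27 ± 0.10 (adjusted p = 0.191), Lipa, the lysosomal acid lipase, 0.22 ± 0.06 (adjusted p = 0.0556), and Mgll 0.16 ± 0.05 (adjusted p = 0.0846). Lipa passed at day 10 with the run as a block (adjusted p = 0.0106) and in the 6 other alternatives that left out no single array or replicate (0.000811 to 0.0431). With the block Fads1 (adjusted p = 0.0356), Acaca (0.0211) and Abcg1 (0.0342) passed at day 7. Within single strains 1 of 57 passed, Fads1 in LF at day 7, against 2.26% of all probe sets in that contrast, and 21 of 57 had an unadjusted p under 0.05 there, against 19% of all. The day 7 count was 0 without replicate 2, 1 without replicate 1 or replicate 3, and 14 (3 rose, 11 fell) with the run as a block. At day 10 the 2 calls of Plin2 and Cyb5a were lost without replicate 1 and without replicate 3.

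**Figure D3:**
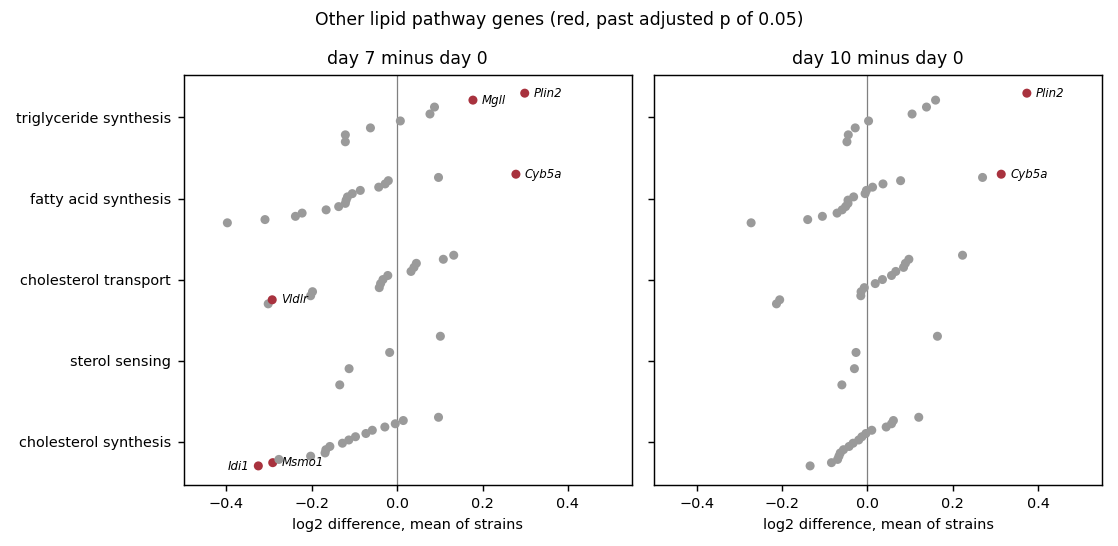
Log2 difference from day 0 in the mean of the 4 strains (x axis) for 57 pathway genes in 5 lists (y axis, sorted within a list), at day 7 on the left and day 10 on the right, with genes past an adjusted p of 0.05 in red and named. Most genes of cholesterol and fatty acid synthesis lie to the left of 0 at day 7, when the median over all probe sets was also below 0 (-0.03).

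Deviations of each array from its group mean were used to ask which genes vary together among kidneys of 1 strain and day. Over 48 arrays, Scd2 deviated with Insig1 (Pearson r = 0.47, Spearman rho = 0.48, adjusted permutation p = 0.0369 and 0.0368) and with Hsd17b7 (r = 0.48, rho = 0.40, adjusted permutation p = 0.0369 and 0.0412). These p-values are two-sided, from 100000 permutations within groups, and adjusted over the 6 pairs of genes. Without FL at day 10 replicates 1 and 4, the 2 arrays farthest out in Scd2, r was 0.38 and 0.27. Within runs, r of Scd2 and Insig1 was 0.27, 0.67, 0.43 and 0.74, and of Scd2 and Hsd17b7 0.67, 0.23, 0.06 and 0.66. Insig1 and Hsd17b7 had r = 0.37 (rho = 0.29, adjusted permutation p = 0.0682 and 0.175). Both relations of Scd2 missed the threshold once the array spread, the SD over all probe sets of an array, was removed (r = 0.41 and 0.36, both with an adjusted permutation p of 0.101). The 2 desaturases, neighbours on the chromosome, had r = 0.02 (rho = -0.08, adjusted permutation p = 0.897), and Scd had r of -0.04 with Insig1 and -0.14 with Hsd17b7.

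**Figure D4:**
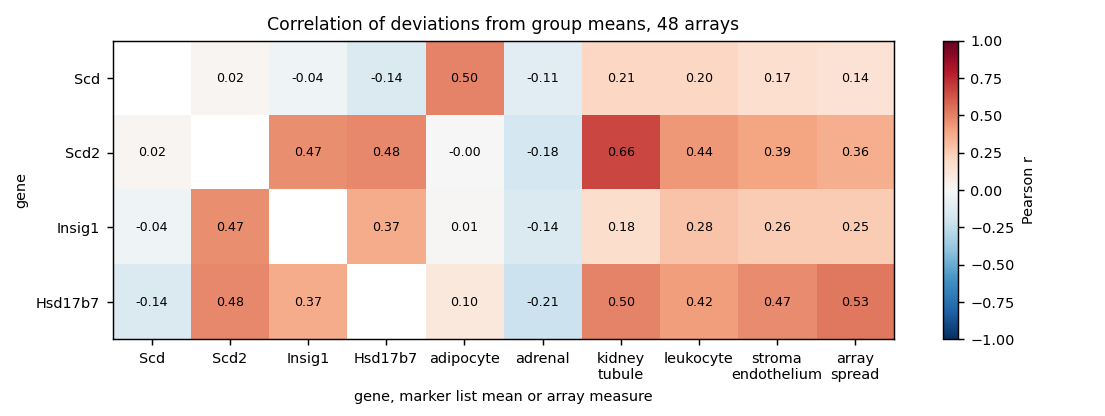
Pearson r over 48 arrays between the deviations of each gene (y axis) and those of the other genes, of the mean of each marker list and of the array spread (x axis). The largest r of Scd is 0.50, with the adipocyte list, and the largest of Scd2 is 0.66, with the kidney tubule list.

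Among arrays of the same strain and day, some lists of cell type markers deviated together with a desaturase. For Scd the relation was with adipocyte markers, 11 of 14 measured (r = 0.50, rho = 0.41, adjusted permutation p = 0.0317 and 0.0978 over 24 relations of genes with marker lists and array spread). It was 0.41 without LF at day 0 replicate 2 and LF at day 7 replicate 3, and 0.59, 0.65, 0.44 and 0.56 within runs. The LF array with the Scd signal of 7.84 also had the highest Adipoq (5.63) and Ucp1 (5.13) signals of the series. Both markers are dim, with means above those of 33.9% and 25.9% of probe sets. The other measured markers of the list peaked on other arrays. On this LF array Fabp4 was 4.66, near its highest signal of 4.75, and Plin1 was 4.82, below its mean of 4.95 over all arrays. The list mean of this array, 5.35, was the top of a range of 4.89 to 5.35 at day 0. Between days, 0 of the 11 adipocyte markers passed at day 7 and 0 at day 10 by limma (2 at each day at an unadjusted p under 0.05), their median difference was 0.04 at both days, and the list mean ranged from 4.75 to 5.35 at day 7 and from 4.84 to 5.26 at day 10. Their part in the Scd differences was not tested.

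Scd2 deviated with the kidney tubule list (r = 0.66, rho = 0.56, adjusted permutation p = 0.00072 and 0.00384), with r = 0.52 without FL at day 10 replicates 1 and 4 and 0.93, 0.25, 0.66 and 0.87 within runs. Of its 11 measured markers, 7 fell at day 7 and 4 at day 10. Over all probe sets 3.75% fell at day 7 and 1.15% at day 10, while 1.19% and 1.26% rose. Among the tubule markers that fell at both days were Calb1, the calbindin of the distal tubule, with differences of -0.89 (adjusted p = 6.17e-06) and -0.84, and Aqp2, the water channel of the collecting duct, with -0.52 and -0.61. The list mean ranged from 10.3 to 10.6 at day 0, from 10.0 to 10.3 at day 7 and from 10.0 to 10.5 at day 10. Scd2 also deviated with leukocyte markers (r = 0.44, rho = 0.46, adjusted permutation p = 0.0338 and 0.0466), of which 3 of 8 measured fell at day 7 and 1 at day 10. Without F at day 7 replicate 4 and FL at day 7 replicate 1 this r was 0.43, and within runs it was 0.55, 0.06, 0.16 and 0.60. Of 8 measured stroma and endothelium markers, 2 rose and 1 fell at day 7, and 3 rose and 0 fell at day 10. Tagln, a smooth muscle protein, rose by 0.45 (adjusted p = 0.00012) and 0.59, and Lum, a matrix proteoglycan with a signal above that of 16.7% of probe sets, by 0.65 and 0.68, while Plvap, an endothelial protein, had -0.24 (adjusted p = 0.0244) and -0.20 (adjusted p = 0.0991). The list mean ranged from 6.91 to 7.45 at day 0, from 7.05 to 7.75 at day 7 and from 7.06 to 7.57 at day 10. Its r was 0.39 with Scd2 (adjusted permutation p = 0.0853) and 0.47 with Hsd17b7 (adjusted permutation p = 0.0535). Hsd17b7 also had r = 0.50 with the tubule list and 0.42 with the leukocyte list (adjusted permutation p = 0.0545 for both). With the array spread removed, Hsd17b7 had r of 0.16 with tubule, 0.15 with leukocyte and 0.09 with stroma and endothelium markers. Scd2 then had 0.65, 0.29 and 0.18 in the same order. The part of these markers in the Scd2 and Hsd17b7 differences was not tested. Hsd17b7 deviated with the array spread (r = 0.53, rho = 0.37, adjusted permutation p = 0.0317 and 0.151), 0.45 without FL at day 10 replicate 4 and L at day 0 replicate 4, and 0.48, 0.21, -0.11 and 0.74 within runs. Insig1 had r of at most 0.28 with any list, with adjusted permutation p-values of 0.192 or more.

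**Figure D5:**
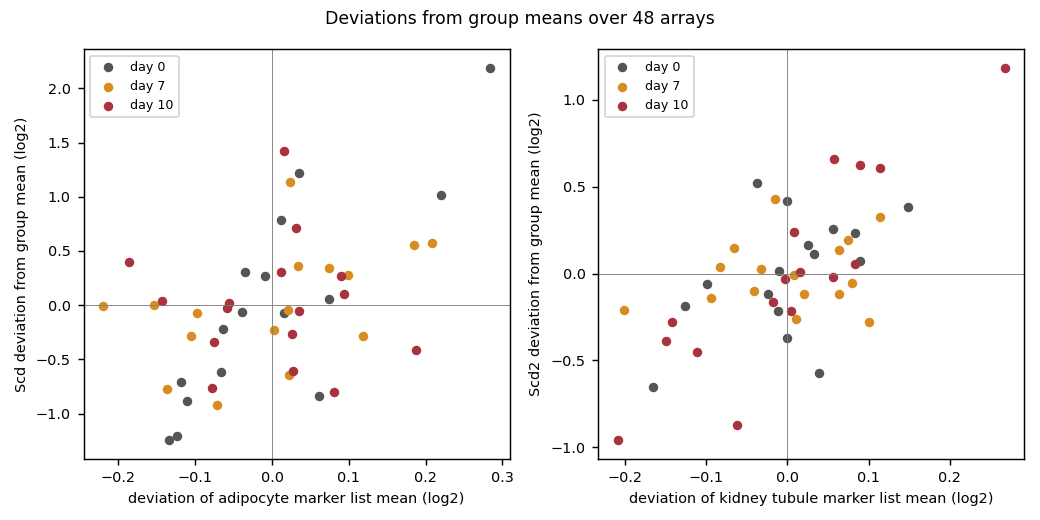
Deviation of each of 48 arrays from its group mean (log2), with Scd on the y axis against the mean of 11 adipocyte markers on the left, and Scd2 against the mean of 11 kidney tubule markers on the right; colours give the day. The array at the upper right of the left panel is LF at day 0 replicate 2.

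The genes most like each of the 4 over the 48 arrays, by Pearson r and with no test, differed between the 2 desaturases. Scd was most like Thrsp (r = 0.68, and 0.65 for deviations from group means), followed by Cxcl12 (0.61), Igf1 (0.59), Slco2b1 (0.57) and Capn6 (0.57). Scd2 was most like Slc8a1, the sodium-calcium exchanger of the distal tubule (0.85, and 0.77 for deviations), followed by Igfbp5 (0.80), Kl, the distal tubule protein Klotho (0.77), Spon1 (0.76) and Sostdc1 (0.74). Insig1 was most like RT1-Da, a class II histocompatibility gene (0.70), then Cyp51 (0.63), Gpm6b (0.63), Clic2 (0.63) and Cd48 (0.62), and Hsd17b7 ranked 12 in its list with 0.59. Hsd17b7 was most like Anxa6 (0.73), Psap (0.71), Nnt (0.70), Lhpp (0.70) and Slc25a21 (0.69). These correlations run over the same arrays and include differences between groups that the genes share.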

How the data were processed

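Kidney RNA was hybridised to whole-transcript arrays after ribosomal RNA removal, per the labels' protocols. The authors deposited log2 signals, 1 per probe set, for 48 arrays, and RMA and limma are named in the submitters' processing notes without roles. Probe sets were named from the platform annotation, updated through Entrez identifiers to RefSeq. Means of 12 groups were fitted in limma 3.58.1 (R 4.3.3) to all 8797 probe sets, with p-values adjusted by Benjamini and Hochberg over all of them at 0.05, and the script was tested on simulated data. The p-values measure the spread between these arrays. The 4 genes, the lists and the tests were chosen with earlier results of these data known. Named were the 4 genes, pathway genes past the threshold, some others of small p, the 5 genes most like each gene, and some cell type markers. Cyp51 and Insig2 were named after their values were seen. The naming followed no fixed rule: at day 7 Fdft1 and Mbtps1 had smaller p than Cyp51 and Insig2 in their lists and were not named. Permutations were run in Python 3.11.15 with numpy 2.4.6. Alternatives were the run as a block, other scalings, array spread as covariate, array weights, a filter on dim probe sets and leaving out arrays.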

Additional observations from a re-analysis of the deposited data

Results flagged for a closer look

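In 3 of the 48 sets of 4 arrays (4 genes in 12 groups), 1 array stood apart from the other 3 by more than Dixon's 95% critical value; chance gives this in about 1 in 20 sets. For Scd2 in L kidneys at day 0, replicate 4 had 7.49 and the others between 8.31 and 8.40. For Insig1 in F kidneys at day 10, replicate 4 had 8.48 and the others 8.78 to 8.82. For Insig1 in L kidneys at day 7, replicate 4 had 8.82 and the others 8.34 to 8.39. The cause was not tested.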

How the results depend on the processing

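Averaged over strains, the day 10 differences of the 4 genes moved on leaving out arrays. Scd ran from -1.29 to -0.70 (standard error 0.27 in the main fit) and Scd2 from -0.80 to -0.62 (0.15). Insig1 ran from 0.005 to 0.14 (0.08) and Hsd17b7 from -0.05 to 0.005 (0.04), a change of sign. Under every alternative run the moves were smaller than the SD between replicates. That SD is larger than these standard errors, so it is a loose measure of stability. The interaction count was 0 under every alternative. The number of pathway genes past the threshold moved most. At day 7 it was 6, and 14 with the replicate block, 12 after a second quantile normalization (6 rose, 6 fell) and 16 with array weights (3 rose, 13 fell). With the array spread as covariate 7 rose and 1 fell, and Idi1 and Vldlr were lost. At day 10 it was 2, and 4 with the replicate block, with array medians subtracted, with array weights or without the 5 arrays of lowest spread (chosen after seeing the data), 6 after quantile normalization and 8 with the array spread. Leaving out arrays gave 0 to 11 at day 7 and 0 to 4 at day 10. Lowest at day 7 was the count without replicate 2, highest that without L at day 0 replicate 4. Idi1 was lost in 34 of 48 omissions of 1 array, Vldlr in 32, Plin2 in 23, Msmo1 in 6, Mgll in 3 and Cyb5a in 0. Counts of strain pairs past the threshold in oil kidneys include F against L of Insig1 and Hsd17b7. That contrast is likely to have led to the choice of these genes, so the counts are no test of it. Of the other 22 comparisons 0 passed in the main fit. With F against L included the count was 2, 0 to 4 on leaving out arrays (0 without replicate 3) and 5 with array spread. It was 6 with array medians subtracted, after quantile normalization or with array weights. Within days 7 and 10 the count was 0. Covarying pairs of genes were 2, 0 with array spread removed or medians subtracted, and 0 to 1 on leaving out replicates. Arrays sharing a replicate number deviated together only in part: of 264 such pairs 108 had a correlation over 0.1 (mean 0.09, against -0.03 for other pairs), and 26 of 48 arrays correlated best with their own number. The replicate block left the differences of the 4 genes as they were and gave 3 strain pairs, Hsd17b7 in F against LF added, and 2 covarying pairs. A mean over probe sets was not run, since each listed gene had 1 probe set. The cause of these shifts was not tested. The number of arrays limits the precision.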
